A study of Homo sapiens with 8 samples.

Results

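PTPRN2 is a large gene near the end of the long arm of chromosome 7, and its peaks were taken as all deposited peaks that overlapped chromosome 7 from 157.331 to 158.381 Mb in the hg19 assembly, an interval of 1.05 Mb. It held 15 peaks of the early, 15 of the mid and 13 of the late G1 list of ORCA, and 202 peaks of methylated DNA. These are 245 of the 98024 peaks in the 4 lists. The gene was chosen by these same peaks, for the number of its methylated DNA peaks and for ORCA peaks that recurred between stages, so that its counts are a description and were not tested. They are set beside the rest of chromosome 7 beyond 100 Mb, which held 74 early, 62 mid and 11 late ORCA peaks and 1248 peaks of methylated DNA in 57.97 Mb.

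The study mapped the protein ORCA in U2OS cells synchronized to 3 stages of G1 (early, mid and late), using sequencing of immunoprecipitated chromatin (ChIP-seq). Methylated DNA was mapped by immunoprecipitation and sequencing (MeDIP-seq) in U2OS cells of no stated stage. U2OS is a human osteosarcoma line, and the 4 inputs that accompany these 4 libraries were not analysed here. Each group is 1 library, so that no difference between stages can be set against a spread between replicates. The sources used here give no read depth, and the 95% intervals below cover counting error only. The late list, with 1347 peaks in all against 10740 early and 10382 mid peaks, carries another caller label in its name, and list length reflects depth and calling as well as binding.

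PTPRN2 encodes phogrin, also called IA-2beta, a transmembrane protein of dense-core secretory vesicles in neurons and endocrine cells. It belongs to the receptor-type tyrosine phosphatases, although its phosphatase domain has little activity towards proteins, and it is an autoantigen in type 1 diabetes. The gene is read from the minus strand, so that its start lies at the higher coordinate, and most of its length is intron. In the RefSeq gene table, 7 other genes lie within it: 2 microRNA genes, MIR153-2 and MIR595, and 5 long noncoding RNA genes, among them PTPRN2-AS1. The nearest protein-coding genes are DNAJB6 beyond its end and NCAPG2 beyond its start. ORCA, also known as LRWD1, has WD repeats and binds the origin recognition complex, the assembly that marks places where replication can begin. It is known to associate with heterochromatin and with repressive histone and DNA methylation. A MeDIP peak is a stretch of DNA where methylated CpG sites are enriched. Exon positions on hg19 were not used here, so that the peaks are placed by their distance from the start-side edge of the interval.

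All 4 lists were denser in PTPRN2 than in the rest of the stretch. Early ORCA peaks numbered 14.3 per Mb in the gene and 1.28 per Mb in the rest, a ratio of 11.2 (95% interval 5.97 to 19.7). Mid peaks numbered 14.3 per Mb in the gene and 1.07 per Mb in the rest, a ratio of 13.4 (interval 7.06 to 23.8). Late peaks numbered 12.4 per Mb in the gene and 0.190 per Mb in the rest, a ratio of 65.3 (interval 26.97 to 161). The gene, which makes up 1.78% of the length of the stretch, thus held 16.9% of its early peaks, 19.5% of its mid peaks and 54.2% of its late peaks. MeDIP peaks numbered 192 per Mb in PTPRN2 and 21.5 per Mb in the rest, a ratio of 8.94 (interval 7.66 to 10.4).

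These ratios rested in part on 1 dense cluster of ORCA peaks, described below. Without it, the ratio was 4.48 for 6 early peaks, 7.12 for 8 mid peaks and 20.1 for 4 late peaks. They also depended on the reference. Against chromosome 7 beyond 150 Mb alone, the ratio was 18.99 for early, 8.76 for mid and 16.45 for late ORCA peaks and 3.72 for MeDIP peaks.

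The chromosome was then tiled downwards from the gene in windows of the same width. Counted by midpoint, PTPRN2 held 43 ORCA peaks and 201 MeDIP peaks, while the median of the 54 other windows was 0 ORCA and 8.5 MeDIP peaks. For late ORCA and for MeDIP, PTPRN2 had the highest count: the highest among the other windows was 4 late peaks and 133 MeDIP peaks. A single window had more early and mid peaks, that from 101680947 to 102730947, with 29 early, 22 mid and 3 late ORCA peaks and 133 MeDIP peaks. The window below it, from 100630946 to 101680946, held 10 early, 7 mid and 1 late peak and 121 MeDIP peaks. The next by ORCA count, from 152080995 to 153130995, held 4 early, 4 mid and 0 late peaks and 14 MeDIP peaks. No late peak was listed in 50 of the 54 windows.

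**Figure D1:**
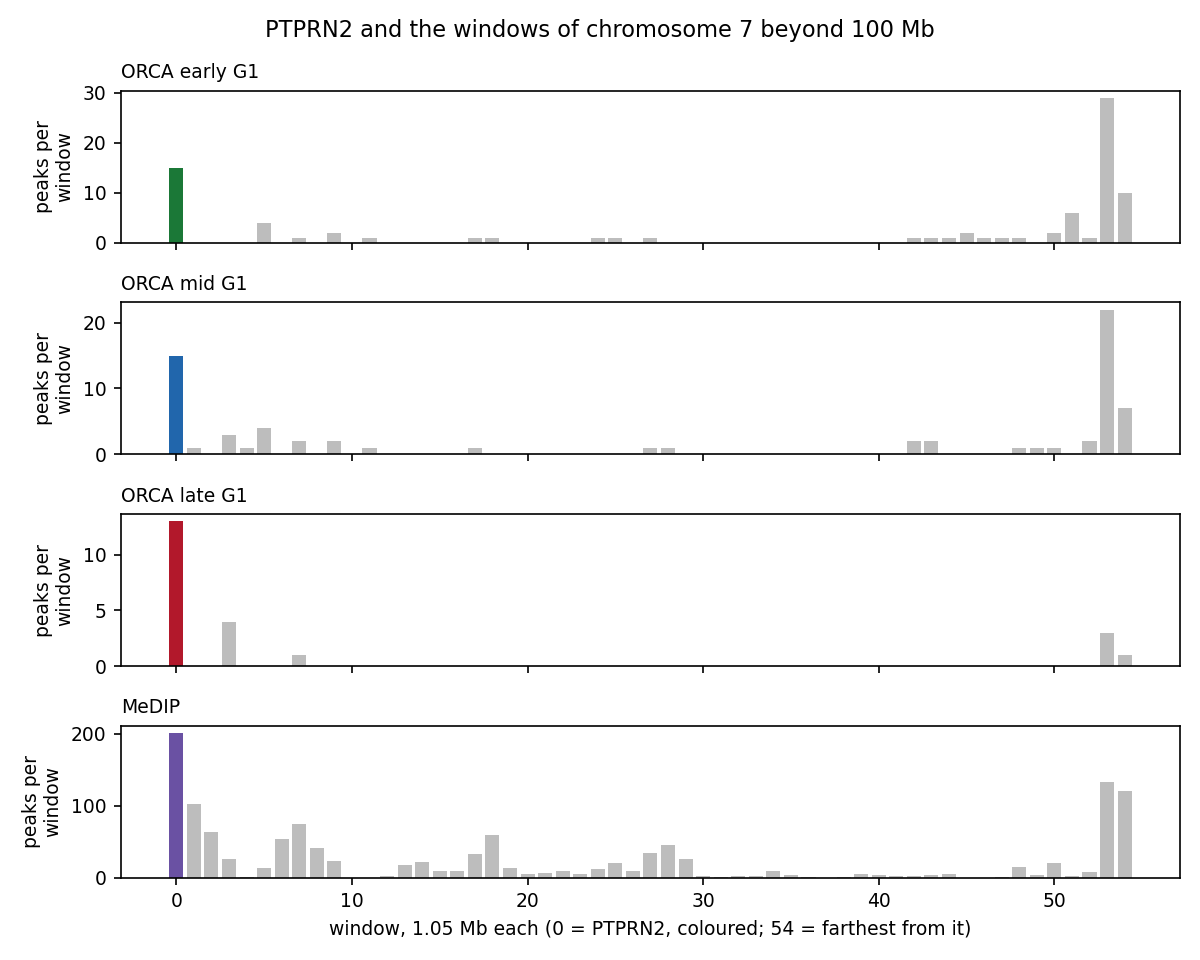
Number of peaks (midpoints) per window of 1.05 Mb along chromosome 7, from PTPRN2 (window 0, coloured) down to window 54 near 100 Mb (grey), with a panel for each list. PTPRN2 held 15 early, 15 mid, 13 late and 201 MeDIP peaks, and no other window exceeded 4 late or 133 MeDIP peaks.

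The edges of the interval did not cut through a group of ORCA peaks. The outermost ORCA peaks inside lay 93.1 kb from its lower edge, with a score of 73.42 in early and 87.71 in mid G1, and 146 kb from its upper edge, with an early score of 75.24. Just outside, the nearest were a mid peak 6.73 kb above the interval, with a score of 67.92, and a mid peak 67.5 kb below it, with a score of 74.51. The nearest early and late peaks above the interval lay 615 kb away. A MeDIP peak from 158380832 to 158381894, with a score of 2119.73, spanned the upper edge.

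ORCA peaks in PTPRN2 had a higher median width and score than those of the rest of the stretch in each list. In the gene their median width was 616 bp at early, 764 bp at mid and 836 bp at late G1, against 494.5, 520 and 556 bp in the rest. Over each whole list it was 592, 624 and 950 bp, so that late peaks in the gene were narrower than the late list's median. The score is the authors' own value per peak, is at least 50 in these lists, and is compared here only within a list. Its median in the gene was 154.26 for early, 354.55 for mid and 269.28 for late G1, against 71.43, 72.68 and 93.59 in the rest. Among the 15 mid peaks of the gene, 10 belonged to the top 5% of the whole mid list by score and 6 to the top 1%. The same numbers were 6 and 2 of the 15 early peaks, and 3 and 0 of the 13 late peaks. MeDIP peaks had a median width of 971.5 bp and a median score of 233.35 in the gene, against 743.5 bp and 165.445 in the rest.

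Merging overlapping peaks of the 3 stages gave 14 ORCA regions in PTPRN2, and most recurred. Of these, 8 were found at all 3 stages (57.1%, interval 32.6 to 78.6), where 3.67% of the 109 regions in the rest of the stretch were (interval 1.44 to 9.06). The rest held only 11 late peaks, which limits how many of its 109 regions could be found at all 3 stages. At 2 or 3 stages there were 11 of 14 regions in the gene (78.6%), against 26.6% in the rest. No region of the gene was found in late G1 alone or in early and late G1 alone, and few were in the rest (1.83 and 0.917%). Counted by peak, 14 of 15 early peaks in the gene overlapped a peak of another stage (93.3%, interval 70.2 to 98.8), against 36.5% in the rest. For mid peaks it was 13 of 15 (86.7%, interval 62.1 to 96.3), against 50% in the rest. All 13 late peaks overlapped a mid peak and 12 of them an early peak, while 81.8% of the 11 late peaks in the rest overlapped a peak of another stage. Without the dense cluster, 6 of 8 regions in the gene were found at 2 or 3 stages and 3 at all 3. The gene was chosen for this recurrence, and its ORCA peaks had higher median scores than those of the rest. High-scoring peaks recurred elsewhere too: of the 45 mid peaks genome-wide with scores of at least 1260.9, 44 overlapped an early peak. Whether recurrence in the gene differed from that of peaks of like score was not tested.

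The region that scored highest in each of the 3 lists within the gene lay on chromosome 7 from 157939223 to 157942048, 440 kb from the start-side edge. It scored 1912.27 at early, 3100 at mid and 2157.77 at late G1. It ranked in the top 0.261% of the early, 0.0819% of the mid and 1.11% of the late list. The peaks were 2766, 2567 and 2650 bp wide, with starts within 236 bp and ends within 60 bp of each other. It also lay on a methylated site of the highest score of the gene: a MeDIP peak from 157939374 to 157942195, with a score of 3100, covered 94.7% of it. That score was shared by 10 MeDIP peaks of the gene and ranked at 3.83% of the whole MeDIP list, with ties averaged. A narrower region of all 3 stages lay next to this ORCA region, from 157943638 to 157944390. It scored 362.79 at early, 681.93 at mid and 285.77 at late G1 and held no MeDIP peak, the nearest being that at the stronger site, 1443 bp away.

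Of the 43 ORCA peaks of PTPRN2, 25 lay in the dense cluster, which ran from 158122562 to 158135399, a span of 12.8 kb that begins 246 kb from the start-side edge. It is the chain with the most regions when regions at most 5 kb apart are joined, a definition chosen after seeing the data. It held 9 of 15 early peaks, 7 of 15 mid peaks and 9 of 13 late peaks, in 6 regions, of which 5 were found at all 3 stages. The peaks covered 53.3% of the span at early, 82.2% at mid and 69.5% at late G1. Of its bases, 52.6% lay in a peak of all 3 lists and 16.9% in none. Whether the inputs also gave peaks there was not tested.

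Between the cluster's 6 regions there were 5 gaps of 72 to 1185 bp with no peak in any list. The first of the 6 regions by coordinate, from 158122562 to 158123193, was a single peak at each stage, with starts within 44 bp and ends within 37 bp. It scored 98.07 at early, 354.55 at mid and 269.28 at late G1. The region from 158128797 to 158130527 was likewise a single peak per stage, with scores of 302.22, 1307.18 and 868.17. The region from 158123495 to 158125754 held 2 early, 1 mid and 2 late peaks, with highest scores of 258.02, 758.03 and 198.88. There the last early peak ended at 158124652, short of the mid end at 158125750 and the late end at 158125754. That from 158125877 to 158127611 also held 2, 1 and 2 peaks, with highest scores of 154.26, 1019.55 and 339.89. The widest, from 158132279 to 158135399, held 3 early, 2 mid and 3 late peaks, with highest scores of 629.68, 1993.33 and 375.55. In these 3 regions a mid peak thus spanned places that were listed as separate peaks in early and late G1.

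The remaining region of the cluster, from 158130600 to 158131788, was listed in mid G1 alone, with a score of 275.27. The nearest early and late peaks ended 77 and 73 bp away. The last region of all 3 stages in the gene lay 17.2 kb beyond the cluster on the start side, from 158152635 to 158153919. Its highest score was 247.27 at early, 276.07 at mid and 57.87 at late G1, the last being the lowest late score in the gene.

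**Figure D2:**
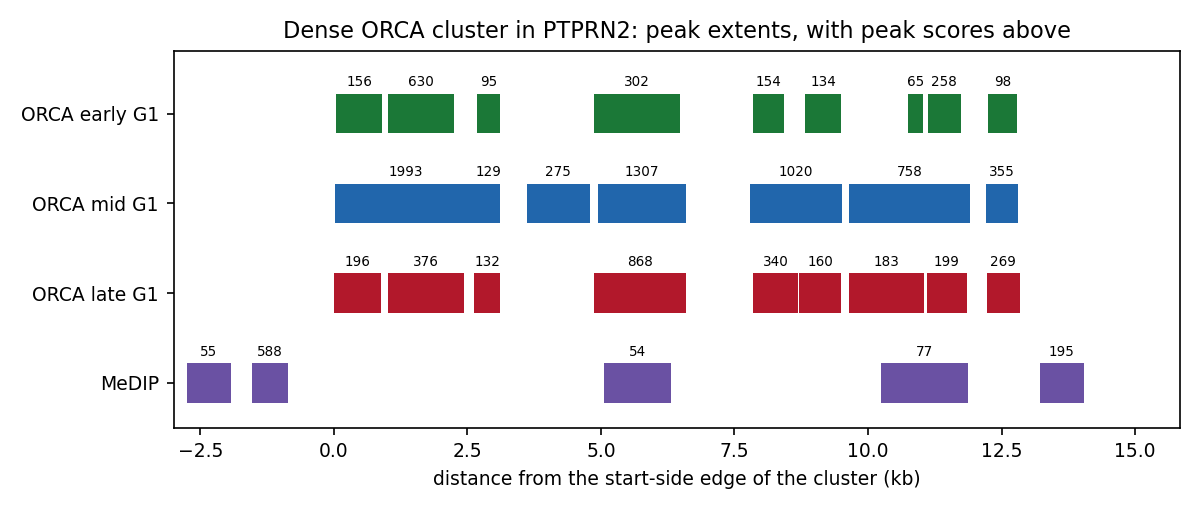
Extent of each peak in the 12.8 kb cluster, with a row each for early, mid and late G1 ORCA and for MeDIP and the authors' score above each bar. The horizontal axis is the distance in kb from the start-side edge of the cluster. The 9 early, 7 mid and 9 late peaks have 5 gaps in common, and 2 MeDIP peaks with scores of 77.42 and 53.75 lie within the cluster.

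A strong site was listed in mid and late G1 with no early counterpart. It lay from 157724767 to 157726878, 655 kb from the start-side edge, and scored 1260.9 in mid and 1336.62 in late G1. The nearest early peak was 137 kb away. This site was singled out after its values were seen. Of the 45 mid peaks genome-wide with a score at least as high, 44 overlapped an early peak, and the peak in PTPRN2 was the 1 that did not. Of the 24 late peaks that scored at least as high as its late peak, 22 overlapped an early peak. No MeDIP peak overlapped the site, the nearest lying 1624 bp away.

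The other regions of the gene were 260 to 821 bp wide and scored below the gene's own median at their stage. Their early scores still exceeded 64.045, the median of the whole early list. Of their mid scores, 66.09 lay below 69.96, the median of the whole mid list, and 71.95 and 87.71 lay above it. Regions of early and mid G1 lay from 157424057 to 157424475, with scores of 73.42 and 87.71, and from 157863738 to 157864558, with 97.91 and 71.95. A mid peak from 158218143 to 158218402 scored 66.09, and an early peak from 158234311 to 158234720 scored 75.24. All 4 were without a late peak.

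**Figure D3:**
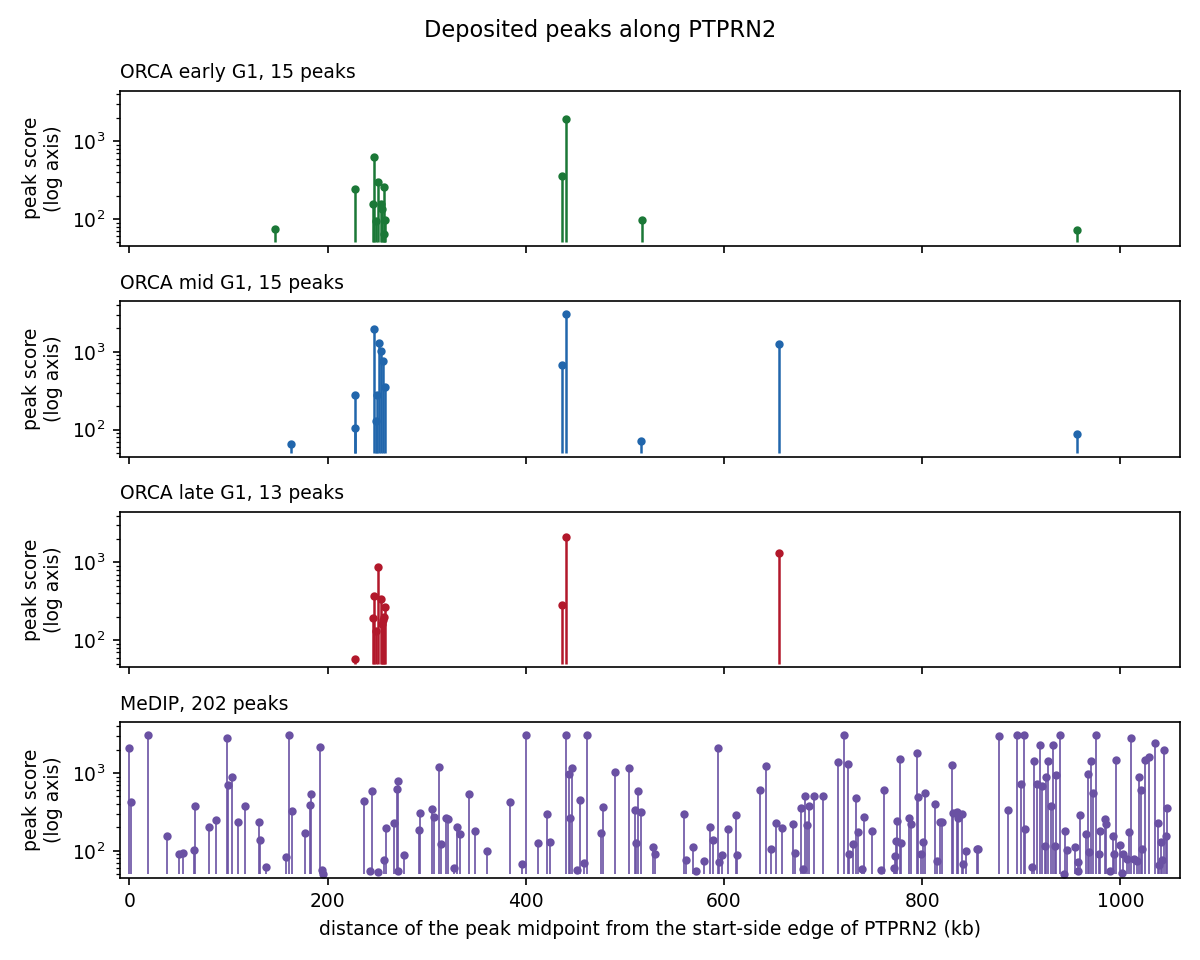
Score (log axis) of each deposited peak in PTPRN2 against the distance in kb of its midpoint from the start-side edge of the gene, with a panel each for the 15 early, 15 mid and 13 late ORCA peaks and the 202 MeDIP peaks. ORCA peaks gather near 247 and 440 kb at each stage, and a site near 655 kb appears in mid and late G1, while MeDIP peaks run along the whole gene.

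ORCA and methylated DNA were distributed differently along the gene. Of the 43 ORCA peaks, 39 lay in the 525 kb nearer the gene start (90.7%, interval 78.4 to 96.3), whereas 74 of the 202 MeDIP peaks did (36.6%, interval 30.3 to 43.5). By stage it was 14 of 15 early, 13 of 15 mid and 12 of 13 late ORCA peaks. Since a site found at several stages enters more than once, the 14 regions were counted too, and 12 lay there (85.7%, interval 60.1 to 96.0). Neighbouring peaks are not independent, which these intervals do not cover. Without the cluster it was 14 of 18 peaks (77.8%), where a site found at several stages again enters more than once.

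In 10 equal windows of 105 kb from start to end of the gene, MeDIP peaks covered 11.8% of the bases of the window at the start and 46.6% of that at the end. In the 3 windows nearest the end they covered 26.4, 35.6 and 46.6%, and these held 2 ORCA peaks in all. The window with the cluster, the third from the start, held 29 ORCA peaks and had 16.3% of its bases in MeDIP peaks. The fifth window, with the highest-scoring ORCA region, held 8 ORCA peaks and had 25.2%. No ORCA peak lay in 5 of the 10 windows.

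**Figure D4:**
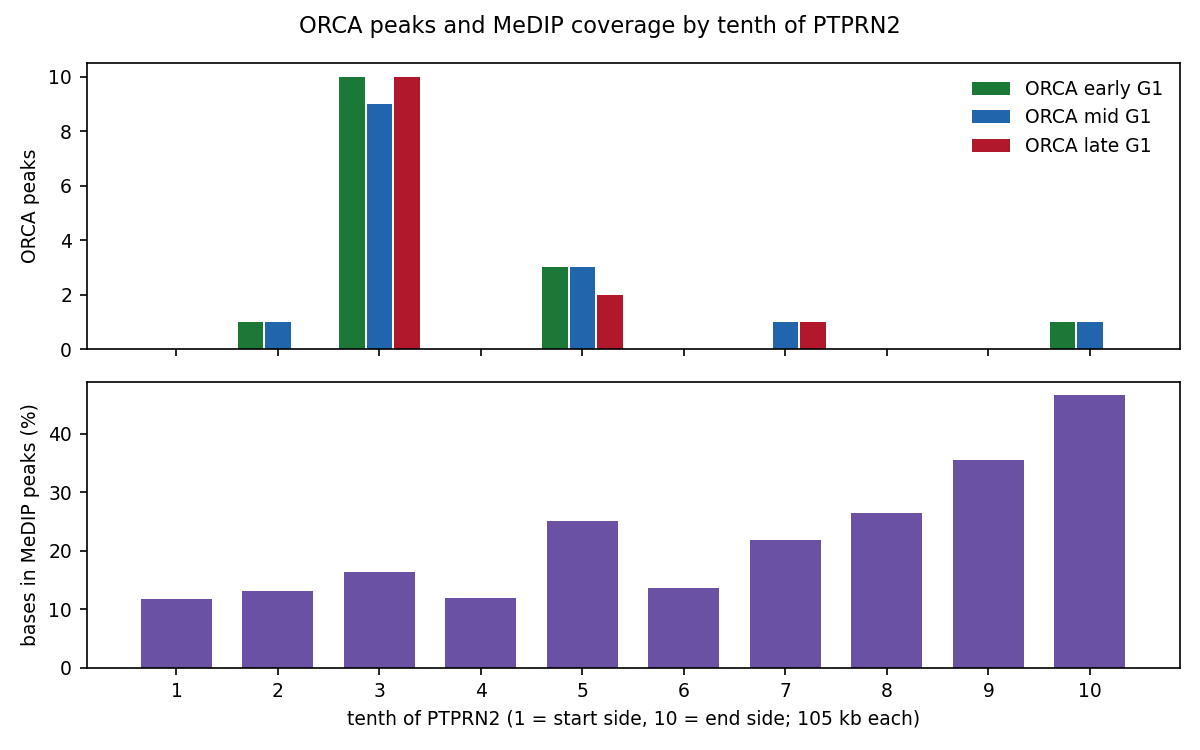
Number of ORCA peaks by stage (upper panel) and percentage of bases in MeDIP peaks (lower panel) in 10 windows of 105 kb, numbered from the start to the end of PTPRN2. ORCA counts peak in window 3, at 10 early, 9 mid and 10 late peaks, while MeDIP coverage is highest in window 10, at 46.6%.

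The next question was whether ORCA peaks of this methylated gene lay on methylated DNA. MeDIP peaks overlapped 5 of 15 early ORCA peaks in PTPRN2 (33.3%, interval 15.2 to 58.3), and 37.8% of early peaks in the rest (interval 27.6 to 49.2). They overlapped 5 of 15 mid peaks in the gene (33.3%, interval 15.2 to 58.3), and 58.1% in the rest (interval 45.7 to 69.5). For late peaks it was 4 of 13 in the gene (30.8%, interval 12.7 to 57.6), and 54.5% of 11 in the rest (interval 28.01 to 78.7). The intervals of gene and rest overlapped at each stage. The shares in the gene depended on the rule of overlap and on weak peaks. When a MeDIP peak within 1 kb counted, they came to 60.0% of the early, 66.7% of the mid and 53.8% of the late list's peaks. With only scores at or above each list's median, 1 peak per stage overlapped, which is 6.67, 7.14 and 8.33% from early to late G1. Without the widest 5% of peaks of each list, the mid share was 16.7%, 2 of 12 peaks. These alternative shares are given for the gene alone, with none for the rest beside them. The median gap between neighbouring MeDIP peaks in the gene was 1913 bp, so that many of its positions lie within 1 kb of one. By region, 5 of 14 in the gene held a MeDIP peak (35.7%), against 41.3% in the rest. Among regions of all 3 stages it was 3 of 8 in the gene and 2 of 4 in the rest.

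Counted by any overlap, the shares were no higher in the gene than in the rest, although the gene itself was far more covered by MeDIP peaks. Of all bases of PTPRN2, 22.2% lay in a MeDIP peak, against 2.04% of the rest. Of the bases in merged ORCA regions, 30.1% lay in a MeDIP peak in the gene and 44.7% in the rest. The share among ORCA bases was 1.35 times that of all bases in the gene and 21.9 times that of all bases in the rest. The highest value such a ratio can take is far lower in the gene, because more of its bases lie in MeDIP peaks. Part of the contrast between these ratios is thus set by their denominators. By stage the ratio in the gene was 1.73 at early, 1.42 at mid and 1.67 at late G1, against 19.8, 29.3 and 28.9 in the rest. The gene's value depended on its highest-scoring region: without that region, 19.2% of the ORCA bases lay in a MeDIP peak, below the 22.2% of all its bases.

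**Figure D5:**
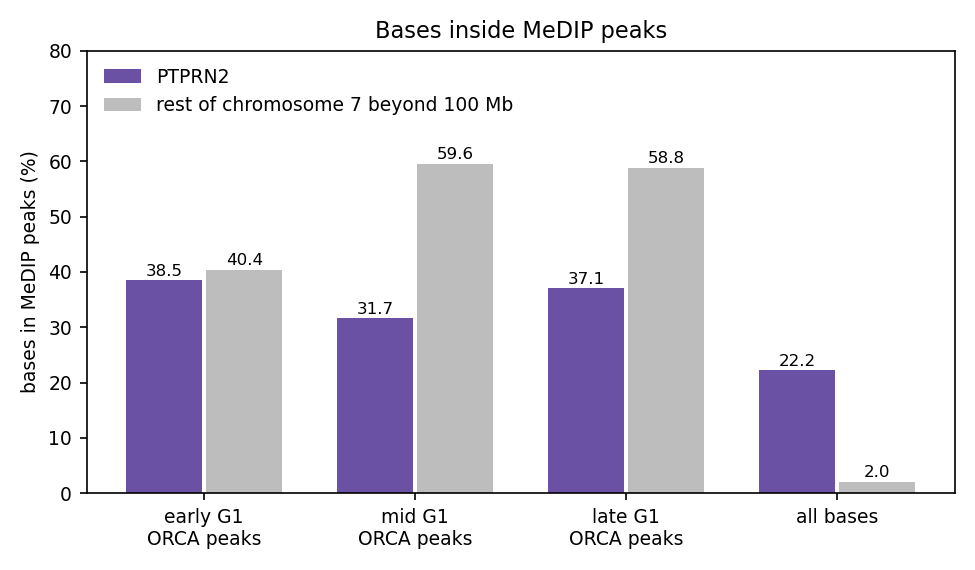
Percentage of bases inside a MeDIP peak, for the bases of early, mid and late G1 ORCA peaks and for all bases, in PTPRN2 (purple) and in the rest of chromosome 7 beyond 100 Mb (grey). ORCA bases reach 38.5, 31.7 and 37.1% in the gene, beside 22.2% of all its bases. In the rest they reach 40.4, 59.6 and 58.8%, beside 2.04% of all bases.

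Seen from the methylated sites, ORCA peaks touched few. Of the 202 MeDIP peaks in PTPRN2, 5 overlapped an ORCA peak of any stage (2.48%, interval 1.06 to 5.66), against 2.56% of the 1248 MeDIP peaks in the rest. The 5 had scores of 54.38, 3100, 77.42, 53.75 and 3100 in order of coordinate. Both peaks with 3100 shared the highest score in the gene, and the other 3 ranked 173, 198 and 199 among the 202. The 2 MeDIP peaks within the dense cluster were among these low ones, with 77.42 and 53.75, and covered 22.4% of its span. The second peak with a score of 3100, from 158217770 to 158221417, contained the mid-only ORCA peak that scored 66.09.

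The highest-scoring MeDIP peaks of the gene were mostly without ORCA, as were its MeDIP peaks as a whole. A score of at least 3100 was reached by 10 of its MeDIP peaks, and 8 of these overlapped no ORCA peak at any stage. Of the gene's 202 MeDIP peaks, 10 were in the top 5% of the whole MeDIP list, which is near that share. The same value, 3100, is the highest score of each ORCA list, so that peaks tied at it may differ in strength. Among all 202 MeDIP peaks of the gene, 197 overlapped none. An ORCA peak thus overlapped 2 of the 10, against 5 of the 202. These 10 were split evenly along the gene, with 5 in the 525 kb nearer its start, 3 of them without ORCA, and 5 in the 525 kb nearer its end, all without ORCA. The 5 named here were taken among the tied scores by lower coordinate, which places them towards the gene end. They lay from 157404339 to 157407300, 157439308 to 157444994, 157477272 to 157479344, 157483829 to 157487034 and 157659218 to 157660609. The widest MeDIP peak of the gene, 5687 bp, was the one that starts at 157439308. The next by width were 3714 bp wide, from 157350562 to 157354275, with a score of 1607.54 and no ORCA peak, and 3648 bp wide, the peak with the mid-only ORCA peak.

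ORCA regions without a MeDIP peak still lay within 10 kb of one. How near other positions of the gene lie to a MeDIP peak was not computed. The distance of the 9 such regions to the nearest MeDIP peak was 223 to 8261 bp, with a median of 866 bp, and the median gap between neighbouring MeDIP peaks in the gene was 1913 bp. The longest stretch of PTPRN2 with no MeDIP peak, 40.9 kb from 158144636 to 158185565, held the recurrent ORCA region next to the cluster. Neighbouring ORCA peaks in the gene were separated by a median of 1.56 kb at early, 1.40 kb at mid and 0.819 kb at late G1, with longest gaps of 439, 300.5 and 213 kb.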

How the data were processed

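ORCA ChIP-seq (early, mid and late G1) and MeDIP-seq of U2OS cells gave 1 deposited peak list each, and the 4 inputs were not analysed here. Trimmomatic, Bowtie 0.12.7 and the builds GRCh37 and hg19 are named in the submitters' processing notes. The sources used here give no caller version, settings, control or read depth, and the peak names begin with MACS. The deposited values are start, end and a score per peak, whose scale was not stated. Starts were counted from 0 and are printed from 1.

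Peaks overlapping by at least 1 bp counted as shared. The reference ran from 100 Mb to the last peak of chromosome 7, at 159024256 bp, without the gene interval. Shares have 95% Wilson intervals, and ratios of density have exact binomial intervals. With 1 library per group no test was run and no replicate could be left out. The counting was checked on simulated lists. Members, lists and rules were chosen with earlier results of these data known. The rule named regions of all 3 stages, the 3 highest-scoring peaks per stage, the 5 highest-scoring and 3 widest MeDIP peaks and the 3 windows with most ORCA peaks. Other regions were named after their values were seen. RefSeq gene names come from a GRCh38.p14 table, with no coordinates used. The planned gene lists and exon positions were not run, because an hg19 annotation was not used here. Calculations used Python 3.11.15, pandas 2.3.3 and scipy 1.17.1.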

Additional observations from a re-analysis of the deposited data

How the results depend on the processing

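The 12 results were recomputed under 72 alternatives, of which 56 stayed inside the counting interval, or within 1.5 times a count, and 16 moved. The gene's density exceeded that of the rest in all 27 density alternatives, with ORCA ratios from 4.48 (early, without the dense cluster) to 110.4 (late, scores at or above the list's median). The late ratio was 16.45 against chromosome 7 beyond 150 Mb and 20.1 without the cluster. By covered bases the mid ratio was 24.4 and the MeDIP ratio 10.9. The MeDIP ratio was 10.9 for scores at or above the median, 3.72 beyond 150 Mb and 7.56 with stretches of over 1 Mb without a peak left out. The MeDIP share in the gene was 60.0% of early and 66.7% of mid peaks when a peak within 1 kb counted, with no such share given for the rest. It was 6.67% (early), 7.14% (mid) and 8.33% (late) when every list kept scores at or above its median. With early and mid lists at late length, 100% of the early peaks overlapped another stage. Without the cluster, 6 regions were found at 2 or 3 stages and 77.8% of the peaks lay nearer the gene start. The cluster alternative was chosen after seeing the data. The cause of these shifts was not tested. No paired analysis was possible because each group is 1 library and no result comes from a test. Depth was not given, and with 13 to 15 ORCA peaks per list in the gene, counting error limits every share.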

Other observations

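Beyond the start-side edge of PTPRN2, the 643 kb up to the last peak of the chromosome held 1 early, 2 mid and 1 late ORCA peak and 77 MeDIP peaks. The window below the gene held 0 early, 1 mid and 0 late ORCA peaks and 102 MeDIP peaks. MeDIP peaks were thus frequent on both sides of the gene, where fewer ORCA peaks were listed than in the gene. The rest of the stretch as a whole held 1.28 early, 1.07 mid and 0.190 late ORCA peaks per Mb. The 643 kb above the gene was not poorer in ORCA peaks than that.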
